A study of Triticum aestivum with 2 samples.

Results

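The MNase hypersensitive sites (MHSs) of homoeologous group 4 of bread wheat are described here, that is, all peaks of the spikelet and seedling lists that lie on chromosomes 4A, 4B and 4D. These chromosomes held 33183 of the 277119 MHSs of the spikelet list and 35028 of the 289446 of the seedling list, or 68211 of 566565 over both lists. Members were chosen by chromosome name alone, so neither the strength of a site nor its tissue was used. MH-seq sequences the small DNA fragments that a light digestion of nuclei with micrococcal nuclease (MNase) sets free, and a peak of such reads marks accessible DNA. The tissues were spikelets at the booting stage and whole seedlings, labelled 10 days old, both wild type of the cultivar Chinese Spring, and all nuclei came from tissue cross-linked with formaldehyde. Each tissue is a mixture of cell types, so a site present in few cells cannot be told apart from a weakly open one. The authors merged 2 replicates per tissue before they called peaks, and 1 list per tissue was used here. No value below has a replicate check and nothing was tested between tissues or chromosomes. Intervals are 95% intervals and cover counting error only.

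Bread wheat is a hexaploid with subgenomes A, B and D, and each homoeologous group holds one chromosome of each, descended from one ancestral chromosome. In most groups gene order is well kept between the homoeologs. Chromosome 4A is the known exception: it carries a pericentric inversion, and the end of its long arm holds segments that came by translocation from 5AL and 7BS, while 4B and 4D kept an order closer to that of the ancestor. Along a wheat chromosome, genes crowd towards the ends and are sparse around the centromere, and open chromatin marks many of their promoters and distal regulatory elements. The comparison of 4A with 4B and 4D asks how open sites lie on a rearranged chromosome and on its less rearranged homoeologs.

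The lists cut each chromosome into 2 parts, and part 2 was joined to part 1 to give 1 position in Mb. The length of a part was taken as the end of its last MHS, which gave 744.6 Mb for 4A, 673.6 Mb for 4B and 509.9 Mb for 4D. The recovered depth was 182.3 M reads in the spikelet and 184.8 M reads in the seedling, and rests on an assumed read extension of 200 bp. No genome sequence of the build was used, so sites are given by position, without their sequence and without the genes beside them. Fold enrichment is the authors' ratio of reads at the summit of a peak over its local background.

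Group 4 was sparse in open sites. Its density was 17.2 MHSs per Mb in the spikelet and 18.2 per Mb in the seedling, against 20.1 and 21 per Mb on the other 18 chromosomes. Chromosome 4A held 12616 spikelet and 13557 seedling MHSs, 4B held 10832 and 11519, and 4D held 9735 and 9952. Per Mb, 4A had 16.9 spikelet MHSs (16.6 to 17.2) and 18.2 seedling MHSs (17.9 to 18.5). The density of 4B was 16.1 per Mb in the spikelet and 17.1 per Mb in the seedling, and that of 4D was 19.1 and 19.5 per Mb. In both lists 4B had the lowest density of the 21 chromosomes and 4A the next lowest. The density of 4A was 1.05 times that of 4B in the spikelet (1.03 to 1.08) and 1.06 times in the seedling (1.04 to 1.09). It was 0.887 times that of 4D in the spikelet (0.864 to 0.911) and 0.933 times in the seedling (0.909 to 0.957). A density below that of the D homoeolog was not particular to 4A. In the other groups the A chromosomes had 17.6 to 19.9 spikelet MHSs per Mb and the D chromosomes 21.4 to 23.8. In the seedling these were 18.4 to 20.9 and 22.1 to 24.5 per Mb. The spikelet list had 0.931 times as many MHSs as the seedling list on 4A, 0.940 times on 4B and 0.978 times on 4D, against 0.957 times on all 21 chromosomes.

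Fold and width of the sites varied little among the 3 chromosomes. The median fold enrichment was 4.48 on 4A, 4.47 on 4B and 4.39 on 4D in the spikelet, and 4.03, 4.08 and 4.05 in the seedling. Median widths were 333, 340 and 339 bp in the spikelet, and 350, 353 and 358 bp in the seedling. The local background separated the chromosomes more than fold or width did, with medians of 5.48 reads on 4A, 5.74 on 4B and 6.04 on 4D in the spikelet, and 5.30, 5.54 and 5.87 reads in the seedling. In both lists the median of 4D was the highest of the 21 chromosomes, and only 1 chromosome had a lower median than 4A.

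A site was called tissue-only where not even 1 bp of it was shared with an MHS of the other list. Over all chromosomes, 32.6% of the spikelet MHSs and 37.0% of the seedling MHSs were called so. On 4A the share was 33.3% in the spikelet (32.4 to 34.1) and 39.4% in the seedling (38.6 to 40.2). The seedling share of 4A was the highest of the 21 chromosomes. On 4B it was 30.6% in the spikelet (29.8 to 31.5), the lowest of the 21, and 36.3% in the seedling (35.4 to 37.2). On 4D it was 31.5% in the spikelet (30.6 to 32.4) and 34.5% in the seedling (33.5 to 35.4), the lowest of the 21 in that list. Group 4 as a whole, with 31.9% in the spikelet and 37.0% in the seedling, was near the background. A tissue-only site is not known to be closed in the other tissue, because the lists do not hold the signal below the calling threshold. Tissue-only MHSs were weaker than common ones on 4A, with median folds of 3.87 against 5.03 in the spikelet and 3.55 against 4.69 in the seedling. The same held on 4B and 4D, where the tissue-only medians were 3.83 and 3.76 in the spikelet and 3.54 and 3.53 in the seedling.

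In 10 Mb bins, the density of all 3 chromosomes formed a broad trough, with the lowest bin over both lists left of the middle. The lowest bin of 4A over both lists ran from 260 to 270 Mb and held 30 spikelet and 66 seedling MHSs. On 4B the lowest bin ran from 260 to 270 Mb with 36 spikelet and 53 seedling MHSs, and on 4D from 180 to 190 Mb with 27 and 55. These bins were centred at 35.6% of the length of 4A, 39.3% of 4B and 36.3% of 4D. The lowest 50 Mb stretch was also alike in depth, with 12.8 MHSs per Mb over both lists on 4A from 220 to 270 Mb, 13.1 per Mb on 4B from 220 to 270 Mb, and 13.1 per Mb on 4D from 160 to 210 Mb. The minimum of 4B depended on the bin width, at 29.3% of the length with bins of 5 Mb and 34.1% with bins of 20 Mb. The minima of 4A and 4D depended on the list. In the seedling alone the lowest bin of 4A ran from 390 to 400 Mb with 62 MHSs, centred at 53.0%. That of 4D ran from 240 to 250 Mb with 54, centred at 48.1%. In relative bins of 5% of the length over both lists, 4A and 4B were lowest from 45% to 50%, with 12.2 and 13.3 MHSs per Mb. The longest stretch with no MHS in either list lay on 4B, with 1495 kb from 292054958 to 293550236 on part 1. On 4A it was 1317 kb from 243431594 to 244748118 on part 1, and on 4D 1162 kb from 199829639 to 200991354 on part 1. All 3 lay between 32.7% and 43.4% of the length of their chromosome.

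**Figure D1:**
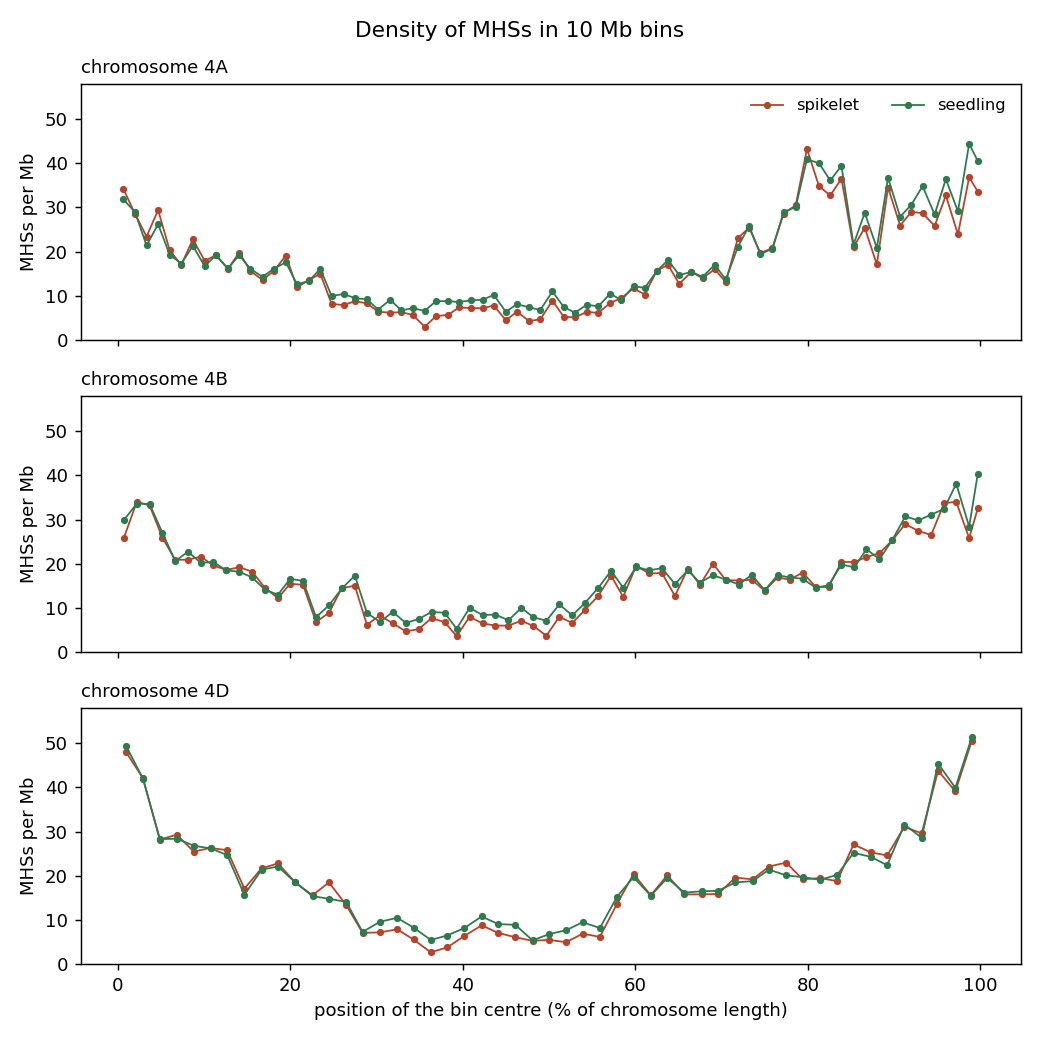
Density of MHSs per Mb (y axis) in 10 Mb bins along 4A, 4B and 4D, placed by the bin centre in % of chromosome length (x axis), with the spikelet list in red and the seedling list in green. All 3 chromosomes have a trough, and 4A also has a shoulder at 79.9% of its length that reached 43.2 spikelet and 40.9 seedling MHSs per Mb.

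Where the chromosomes parted was the distal end of 4A. Its densest 10 Mb bin ran from 590 to 600 Mb, with 432 spikelet and 409 seedling MHSs, and lay 145 Mb from the nearer end of the chromosome. On 4B the densest bin was 650 to 660 Mb, with 340 spikelet and 381 seedling MHSs, 13.6 Mb from the end. On 4D it was the last bin, from 500 to 509.9 Mb, with 498 and 506. Of the 21 chromosomes, 4A had its densest bin farthest from an end, followed by 1A with 44.1 Mb and 7B with 40.6 Mb. With bins of 5 Mb the densest bin of 4A moved to 99.0% of the length, and with bins of 20 Mb it stayed at 79.2%. The densest bin of 4B moved to 1.86% with bins of 5 Mb, and that of 4D to 1.47% with bins of 5 Mb and 1.96% with bins of 20 Mb. In relative bins of 5% of the length, the bin from 80% to 85% held 74.3 MHSs per Mb over both lists on 4A, 33.3 per Mb on 4B and 37.0 per Mb on 4D. Spikelet MHSs that overlapped a seedling MHS numbered 22.9 per Mb there on 4A, 11.4 on 4B and 12.5 on 4D, and spikelet MHSs with no seedling overlap numbered 12.7, 5.34 and 5.92 per Mb. In the first 5% 4A held 55.9 MHSs per Mb, against 62.5 on 4B and 82.4 on 4D, and in the last 5% 67.5 per Mb, against 65.1 and 90.2.

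Of the 3 density profiles, that of 4A had the lowest correlations. Across 20 relative bins, and over both lists, the density of 4A had a Pearson r of 0.80 with 4B and 0.81 with 4D (Spearman rho 0.86 and 0.90). The profiles of 4B and 4D had an r of 0.97 and a rho of 0.93 with each other. Among the 21 pairs of homoeologous chromosomes of the 7 groups, both pairs with 4A had the lowest r, followed by 7A with 7B at 0.84 and 7B with 7D at 0.86. By rank, 4A stood less apart, since rho was 0.86 for 7A with 7B and 0.89 for 7B with 7D. The pairs of 5A with 5B and with 5D had an r of 0.92 each, and a rho of 0.95 and 0.93. When 4A was turned end for end, r was 0.50 with 4B and 0.63 with 4D, below the values as sequenced. The bins of one chromosome share the same 2 lists and are not independent, and these correlations are descriptions with no test.

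**Figure D2:**
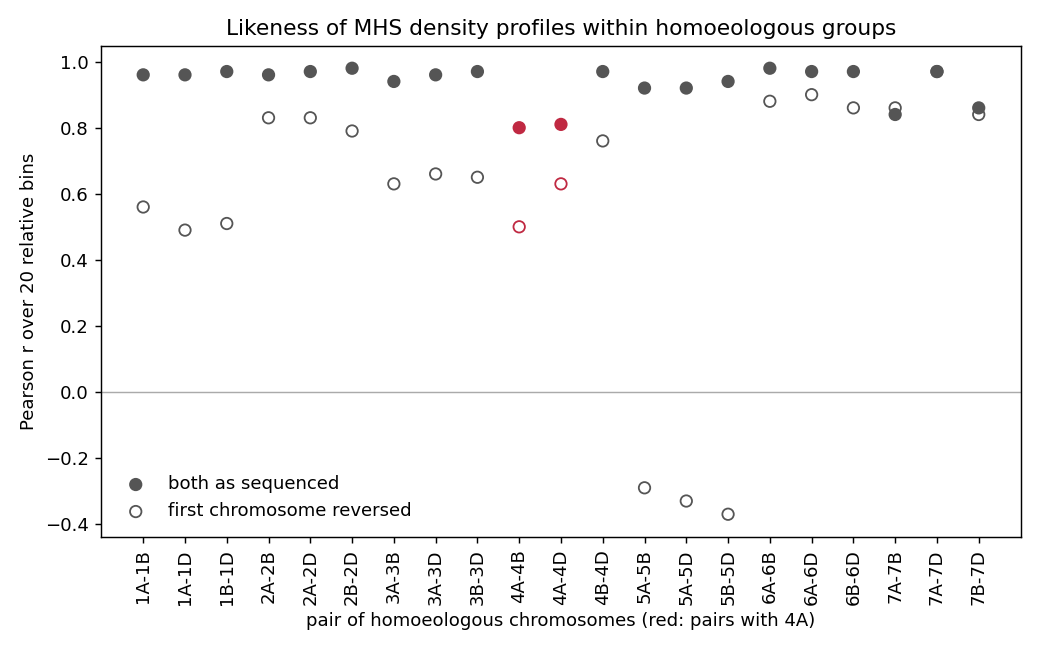
Pearson r of the MHS density of 2 homoeologous chromosomes over 20 relative bins (y axis) for the 21 pairs of the 7 groups (x axis), both as sequenced (filled) and with the first chromosome turned end for end (open), with pairs that include 4A in red. As sequenced, 4A with 4B (0.80) and 4A with 4D (0.81) are the lowest pairs.

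The ends of 4A were also uneven. The outermost 10% at the start of 4A held 1835 spikelet and 1736 seedling MHSs, and the outermost 10% at its end held 2182 and 2502. The start thus had 45.7% of the spikelet MHSs of both ends (44.1 to 47.2) and 41.0% of the seedling MHSs (39.5 to 42.5). On 4B the start had 47.0% in the spikelet and 45.8% in the seedling, and on 4D 47.2% and 47.1%. In the seedling, only 2 chromosomes had a lower share at the start than 4A, while 4A ranked 10 of 21 from the lowest in the spikelet. Kept to MHSs with a q of at most 1e-05, the seedling share at the start was 46.7% on 4A, 46.5% on 4B and 47.5% on 4D. In the spikelet it was then 47.3% on 4A, 46.6% on 4B and 47.7% on 4D, so in both lists 4A was no longer below 4B.

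The ends of 4A differed more in tissue-only than in common sites. Common sites, which overlapped one of the other list, were nearly even at the ends of 4A, since the end held 1.07 times as many common MHSs as the start in the spikelet list and 1.08 times in the seedling list. On 4B and 4D these ratios were 1.10 each in the spikelet, and 1.11 and 1.09 in the seedling. Tissue-only MHSs were uneven on 4A, with 1.42 times as many at the end in the spikelet and 2.22 times in the seedling. For 4B the ratio was 1.18 in the spikelet and 1.32 in the seedling, and for 4D 1.15 and 1.18. Both ratios of 4A were the highest of the 21 chromosomes, followed by 5D with 1.35 in the spikelet and 7B with 1.67 in the seedling.

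In the last 20% of 4A, from 595.7 Mb on, 1717 of 4417 spikelet MHSs, or 38.9% (37.4 to 40.3), and 2276 of 4941 seedling MHSs, or 46.1% (44.7 to 47.5), were tissue-only. In the last 20% of 4B the shares were 31.8% in the spikelet (30.3 to 33.4) and 36.4% in the seedling (34.8 to 38.0), and in that of 4D 31.7% (30.1 to 33.4) and 33.0% (31.4 to 34.7). The background in the last 20% of all chromosomes was 34.3% in the spikelet and 38.1% in the seedling. The share of 4A exceeded that of 4B by 7.04 percentage points in the spikelet (4.88 to 9.17) and by 9.69 in the seedling (7.56 to 11.8). It exceeded that of 4D by 7.18 points in the spikelet (4.99 to 9.34) and by 13.1 in the seedling (10.9 to 15.2). Among the first and last 20% of the 21 chromosomes, which make 42 ends, this end of 4A had the highest share in both lists. The next were the first 20% of 1A in the spikelet, whose 38.6% (36.8 to 40.4) was within the interval of 4A, and the last 20% of 7B in the seedling, with 43.7%. The first 20% of 4A had the lowest share in the seedling. That first 20% had 30.8% tissue-only MHSs in the spikelet (29.2 to 32.4) and 30.5% in the seedling (28.8 to 32.1), against backgrounds of 34.7% and 37.8%. The first 20% of 7B and the last 20% of 5A, at the ends of the arms 7BS and 5AL, had 32.5% and 32.6% in the spikelet and 35.0% and 35.8% in the seedling. The ends at the same position on their homoeologs had higher values, though for 5A not clear of counting error. The first 20% of 7A and 7D had 36.3% and 38.0% in the spikelet, and 40.6% and 40.8% in the seedling. For the last 20% of 5B and 5D the shares were 33.9% and 33.4% in the spikelet, and 39.9% and 37.0% in the seedling. The spikelet interval of 5A (31.2 to 34.0) overlapped those of 5B (32.5 to 35.4) and 5D (32.0 to 34.9). In the seedling the interval of 5A (34.5 to 37.2) overlapped that of 5D (35.5 to 38.4). The last 20% of 4A is a relative interval that need not match the translocated segments, whose breakpoints were not used here.

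**Figure D3:**
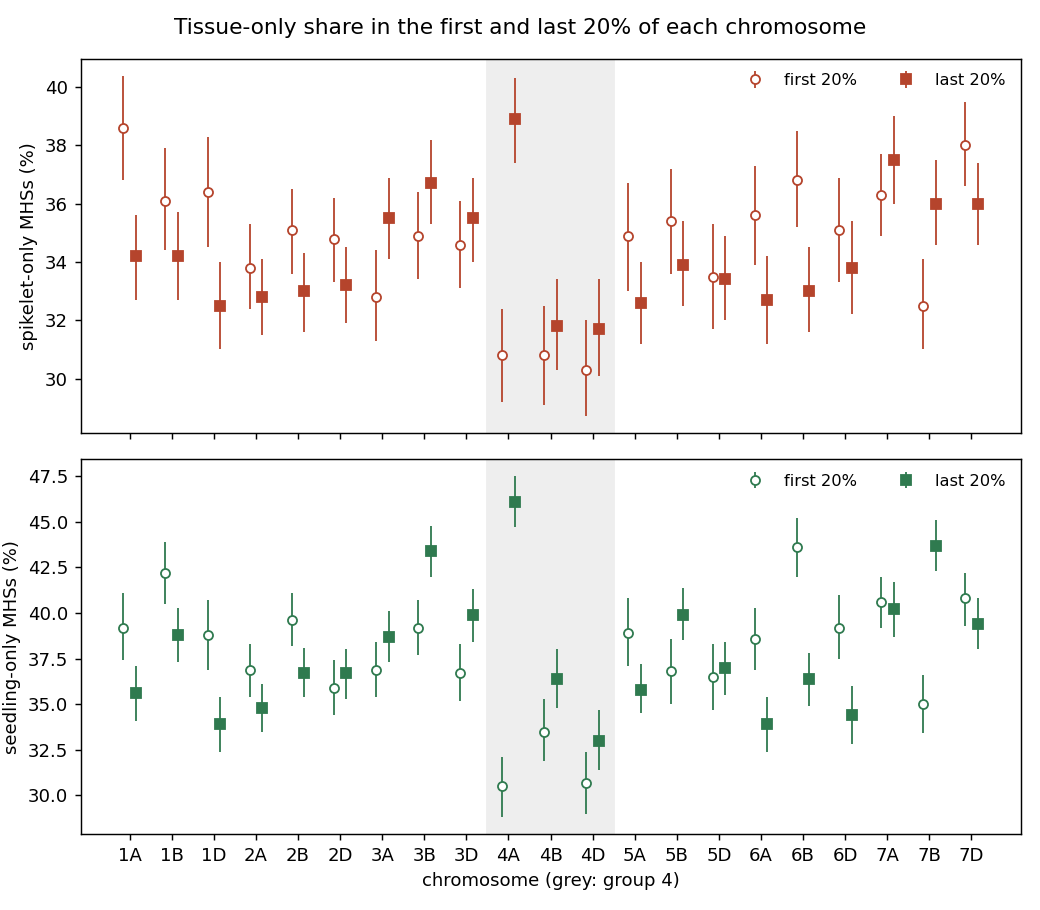
Share of tissue-only MHSs in % (y axis; upper panel spikelet list, lower panel seedling list) in the first 20% (open circles) and the last 20% (filled squares) of the 21 chromosomes (x axis), with 95% Wilson intervals and group 4 shaded. The last 20% of 4A is the highest point of either panel, at 38.9% and 46.1%.

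In densities, the last 20% of 4A held 11.5 spikelet-only and 15.3 seedling-only MHSs per Mb, against 7.78 and 9.31 per Mb on 4B and 9.67 and 10.0 on 4D. Common MHSs there, at 18.1 per Mb in the spikelet and 17.9 in the seedling, lay between 4B with 16.7 and 16.3 and 4D with 20.8 and 20.3. From 560 to 600 Mb the seedling-only share of the 10 Mb bins lay between 30.0% and 35.0%, and from 600 Mb on no bin was below 37.6%. Bins before 560 Mb reached or neared this range, with 37.6% from 510 to 520 Mb, 38.7% from 520 to 530 Mb and 36.6% from 550 to 560 Mb. The stretch from 440 to 600 Mb had 31.1% tissue-only MHSs in the spikelet (29.5 to 32.7) and 33.1% in the seedling (31.5 to 34.8), while the stretch from 600 Mb to the end had 39.0% (37.5 to 40.5) and 46.5% (45.1 to 47.9). This boundary was chosen after the bins were seen. The highest full bin of the end, from 720 to 730 Mb, had 116 spikelet-only MHSs of 239 and 171 seedling-only MHSs of 291. It was also the highest bin of 4A for the spikelet.

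The share was also compared at like fold. Each list was cut into 4 fold classes of 25% of its MHSs, and the share of tissue-only sites was taken within a class. Over the last 20% of all chromosomes, the shares were 53.1%, 42%, 26.0% and 11.1% in the spikelet and 60.2%, 49.7%, 30.1% and 7.07% in the seedling, from the weakest class to the strongest. In the weakest class of the last 20%, 58.5% of the spikelet MHSs were tissue-only on 4A, 49.4% on 4B and 50.4% on 4D. In the next 2 classes the spikelet shares were 47.9% and 32.0% on 4A, 40.0% and 24.6% on 4B, and 35.6% and 21.2% on 4D. In the seedling, the weakest class had 64.7% on 4A, 58.7% on 4B and 55.7% on 4D, and the following 2 classes had 57.5% and 38.9% on 4A, 50% and 27.8% on 4B, and 40.2% and 26.1% on 4D. The strongest class had 13.8% in the spikelet and 10.4% in the seedling on 4A, 9.42% and 7.53% on 4B, and 11.4% and 5.99% on 4D. In all 4 classes of both lists 4A had the highest share, and it was above the value over all chromosomes in each, although in the strongest class its interval overlapped that of 4D in the spikelet and that of 4B in the seedling. The local background of this end was low, with a median of 5.30 reads in the spikelet and 5.06 in the seedling, against 5.94 and 5.70 on 4B and 6.36 and 6.18 on 4D. The part of this background in the shares was not tested. Of the MHSs of this end, 77.3% in the spikelet and 58.4% in the seedling had a q of at most 1e-05. On 4B these were 81.9% and 68.2%, and on 4D 81.2% and 69.3%. Kept to this q in both lists, the share of 4A exceeded that of 4B by 9.68 points in the spikelet and 8.61 in the seedling. It then exceeded that of 4D by 9.33 and 10.3 points. Of the tissue-only MHSs of this end, 13.5% in the spikelet and 11.1% in the seedling had a site of the other list no more than 500 bp away, against 15.9% and 12.6% on 4B and 16.2% and 16.9% on 4D.

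**Figure D4:**
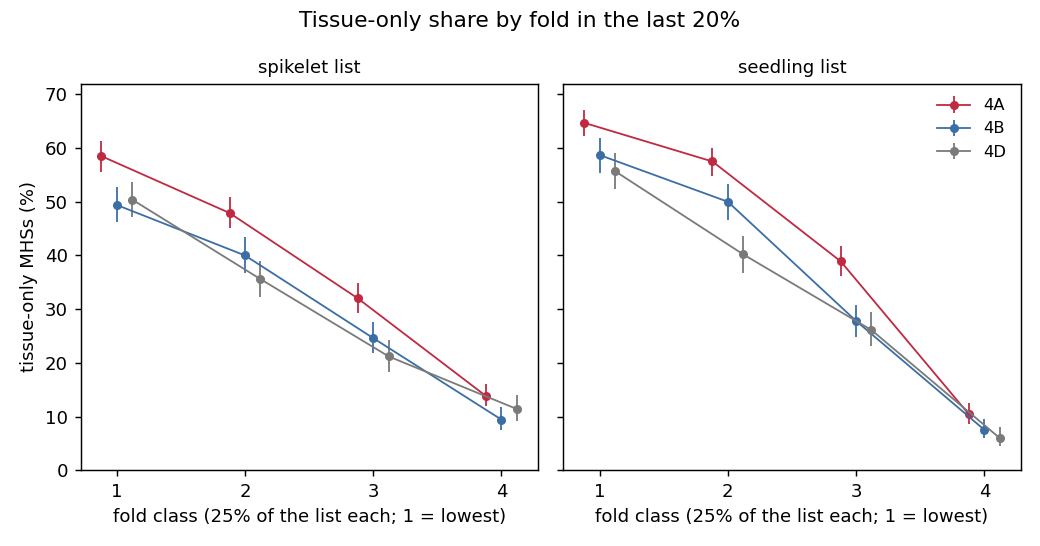
Share of tissue-only MHSs in % (y axis) by fold class, 1 being the weakest 25% of the list and 4 the strongest (x axis), in the last 20% of 4A, 4B and 4D for the spikelet list (left) and the seedling list (right), with 95% Wilson intervals. The share is lower in each stronger class on all 3 chromosomes, and 4A has the highest share in every class, from 58.5% to 13.8% in the spikelet and from 64.7% to 10.4% in the seedling.

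In the trough the seedling-only share was high on all 3 chromosomes. The middle 20% of all chromosomes had 30.5% tissue-only MHSs in the spikelet and 39.0% in the seedling. It is an unlike background, since the stretches below were picked as the sparsest and lay mostly in the second 20%. The sparsest middle 20% and second 20% among the 21 chromosomes in the seedling, those of 6A and 5A, had 54.1% and 47.5%. In the lowest 50 Mb stretch, 34.8% of 276 spikelet MHSs (29.4 to 40.6) and 52.6% of 365 seedling MHSs (47.5 to 57.7) were tissue-only on 4A. On 4B the shares were 32.1% of 280 (26.9 to 37.8) and 49.5% of 374 (44.4 to 54.5), and on 4D 36.0% of 264 (30.4 to 41.9) and 57.4% of 390 (52.5 to 62.2). The intervals of 4A overlapped those of 4B and of 4D in both lists, and each stretch held fewer spikelet than seedling MHSs. On 4A the lowest ratio of spikelet to seedling MHSs was 0.455, in the bin from 260 Mb, where 46 of 66 seedling MHSs were tissue-only. On 4D it was 0.491, in the bin from 180 Mb, where 41 of 55 were tissue-only. The seedling MHSs of these lowest stretches had a median fold of 3.99 on 4A, 3.95 on 4B and 3.93 on 4D, and the spikelet MHSs 4.65, 4.90 and 4.67. Seedling-only sites of the middle 20% had a median distance to the nearest spikelet MHS of 43.2 kb on 4A, 23.5 kb on 4B and 25.7 kb on 4D, against 13.5 kb over all chromosomes. Long distances were also found elsewhere, with 50.3 kb in the middle 20% of 6A and 33.2 kb in that of 6B. Spikelet MHSs were also sparser in the middle 20% of group 4, with 6.82 per Mb on 4A, 8.62 on 4B and 7.96 on 4D. In the middle 20% of all chromosomes they numbered 11.6 per Mb. The part of this density in the distances was not tested.

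**Figure D5:**
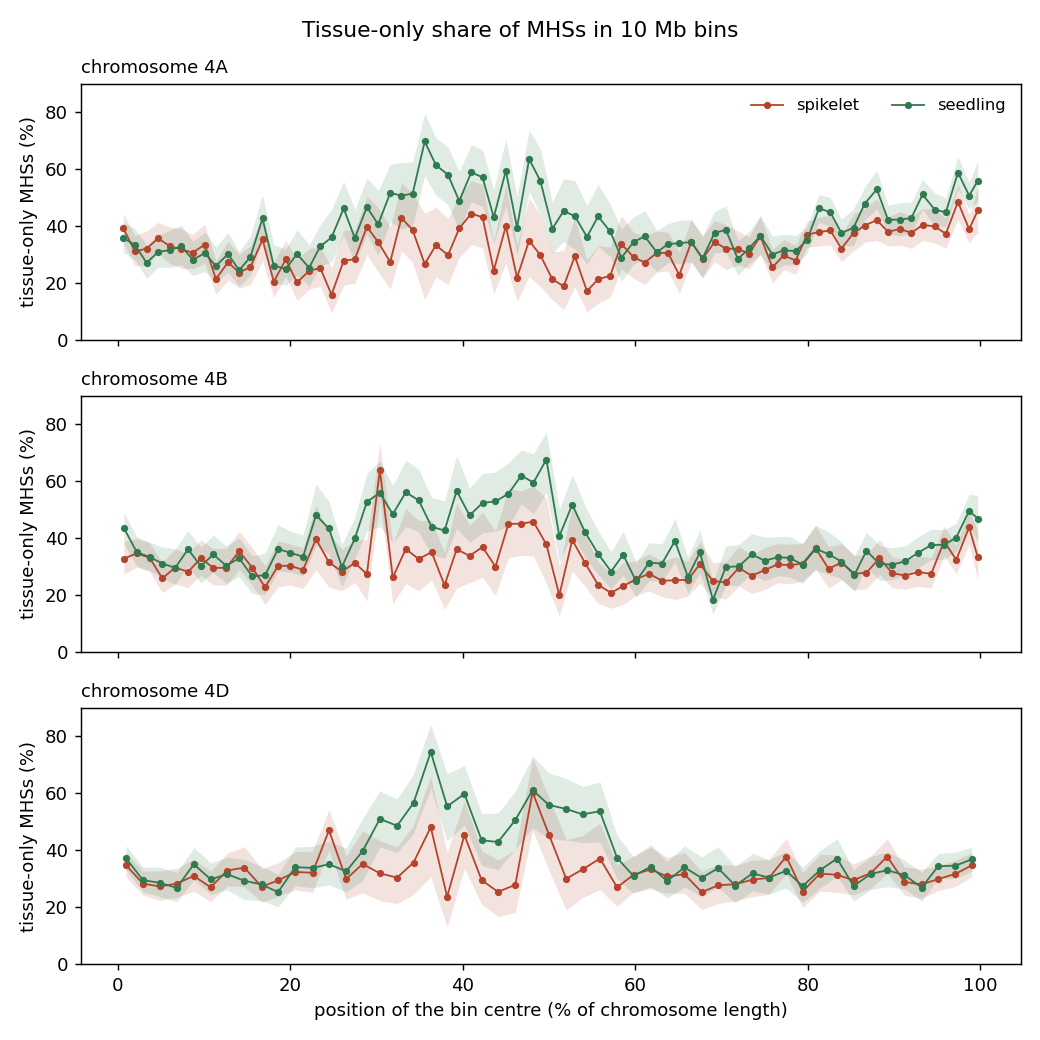
Share of tissue-only MHSs in % (y axis) in 10 Mb bins along 4A, 4B and 4D, placed by the bin centre in % of chromosome length (x axis), for the spikelet (red) and seedling (green) lists, with 95% Wilson intervals shaded. The seedling share peaks in the low middle of each chromosome, at 69.7% on 4A, 67.6% on 4B and 74.5% on 4D, and on 4A both lists have a further plateau over the last 20%.

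Some tissue-only MHSs lay in unbroken runs, as on the other chromosomes. The longest spikelet-only runs of the 21 chromosomes had 73 MHSs on 1A and 44 on 1D, and 5D and 2B had runs of 35 and 33. The longest seedling-only run had 19 MHSs and lay on 6B. On 4B, 21 spikelet-only MHSs followed each other from 208962347 to 209369775 on part 1 with no seedling MHS between them, and their 10 Mb bin had 53 spikelet-only MHSs of 83, or 63.9% (53.1 to 73.4). On 4D the longest such run had 36 spikelet-only MHSs from 123326066 to 123745151 on part 1, and its bin had 185 spikelet and 148 seedling MHSs, the highest ratio of the chromosome at 1.25. The longest spikelet-only run of 4A was shorter, with 16 MHSs from 67459482 to 67893201 on part 1. Their median local background was 7.02 reads in the run of 4B, 7.51 in that of 4D and 6.62 in that of 4A, above the medians of their chromosomes. Of the 3 chromosomes of group 4, 4A had the longest seedling-only run, with 15 MHSs from 267915790 to 270101159 on part 1, at its low middle. On 4B the longest had 10 MHSs from 318099609 to 318533977 and on 4D 9 MHSs from 184335263 to 185707319, both on part 1. The median local background of these seedling-only runs was 2.64 reads on 4A, 2.75 on 4B and 2.64 on 4D. That is at or near the lowest background of the seedling list, 2.64 reads. Their median folds were 3.77, 3.49 and 3.85. The runs of the spikelet spanned 434 kb on 4A, 407 kb on 4B and 419 kb on 4D, and those of the seedling 2185 kb, 434 kb and 1372 kb.

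The densest windows of 1 Mb sat at the shoulder of 4A and near the ends of 4B and 4D. On 4A the densest window ran from 143544970 to 144544969 on part 2, or 596.1 to 597.1 Mb, and held 94 spikelet and 78 seedling MHSs, 4.89 times the mean density of the chromosome. It lay 147 Mb from the end, the farthest of the 21 chromosomes, followed by that of 7B with 83.1 Mb. The next windows of 4A held 86 spikelet and 70 seedling MHSs from 286144970 to 287144969 on part 2, which is 4.89 Mb from the end, and 73 and 65 from 141344970 to 142344969, again at the shoulder. In all 3 windows of 4A more MHSs came from the spikelet. This was also so in the bin from 590 to 600 Mb, which holds both windows of the shoulder, with 432 spikelet and 409 seedling MHSs. Kept to a q of at most 1e-05, the densest window of 4A was the one at 99.3% of the length. On 4B the densest window was at 11300001 to 12300000 on part 1, with 77 spikelet and 82 seedling MHSs, followed by 202285829 to 203285828 on part 2, with 56 and 68, and 220485829 to 221485828 on part 2, with 52 and 57. On 4D the windows were 6200001 to 7200000 on part 1, with 86 spikelet and 90 seedling MHSs, 46095556 to 47095555 on part 2, with 89 and 83, and 15200001 to 16200000 on part 1, with 82 and 74. Only the third window of 4B had a seedling-only share above 40%, with 47.4% (35.0 to 60.1), and the densest window of 4A had 25.6% (17.3 to 36.3). The seedling-only share of the 3 windows of 4A thus lay below its share over the last 20%.

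A fold of 10 or more was reached by 1.56% of the spikelet and 1.10% of the seedling MHSs of group 4, against 1.53% and 1.10% of those of all chromosomes. On 4A 189 spikelet MHSs (1.50%, 1.30 to 1.73) and 157 seedling MHSs (1.16%, 0.991 to 1.35) reached it, on 4B 172 and 112, and on 4D 156 and 115. Of all strong MHSs, 12.3% were tissue-only in the spikelet and 0.504% in the seedling. On 4A 14 of 189 strong spikelet MHSs were tissue-only (7.41%, 4.46 to 12), against 27 of 172 on 4B (15.7%, 11.0 to 21.9) and 20 of 156 on 4D (12.8%, 8.45 to 19.0). This order was not particular to group 4. In each of the 7 groups the B chromosome had the highest such share, from 13.7% on 2B to 17.3% on 5B. The share of 6A, 7.29%, was as low as that of 4A. In the seedling none of 157 strong MHSs was tissue-only on 4A, 1 of 112 on 4B and none of 115 on 4D. By the rule that a count of 0 allows up to 3 counts, these allow shares of up to 1.91% on 4A and 2.61% on 4D, and the Wilson upper bounds are 2.39% and 3.23%. Strong sites were a larger share of the spikelet MHSs in the middle 20% than in the last 20%. In number, of the 3 chromosomes only 4B had more in the middle 20%, with 40 against 37. On 4A there were 28 against 45, and on 4D 22 against 27. In the middle 20% 2.76% of the spikelet MHSs of 4A, 3.45% of 4B and 2.71% of 4D had a fold of 10 or more, against 1.02%, 1.12% and 0.868% in the last 20%. Over all chromosomes the shares were 2.38% in the middle 20% and 1.06% in the last 20%, so the same order held there.

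Of the 3 MHSs with the largest fold per chromosome, all of the seedling were common, while 4 of the 9 in the spikelet were tissue-only. On 4A the largest fold of the seedling was 24.2, found from 452548104 to 452548504 on part 1 with 153 reads at its summit. The spikelet MHS that overlapped it, from 452548084 to 452548521, had a fold of 20.5 with 204 reads, and their summits lay 16 bp apart. This site lay 6.53 kb before the end of the last MHS of its sequence part. The largest folds of the spikelet on 4A were 22.8, from 397967052 to 397967449 on part 1, and 20.9, from 30935025 to 30935357 on part 1. Both were tissue-only, and the nearest seedling MHSs lay 98.6 and 77.2 kb away. The other seedling MHSs with the largest folds on 4A lay in its distal end, with 19.6 from 222181853 to 222182280 and 15.5 from 229484276 to 229484736 on part 2. The spikelet MHSs that overlapped them had folds of 17.2 and 11.4, so these were common sites within the stretch of high tissue-only share.

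On 4B the largest fold of the spikelet was 25.8, from 196935389 to 196935779 on part 2, and a seedling MHS with a fold of 17.3 overlapped it with its summit 1 bp away. A spikelet-only MHS with a fold of 23.4 and 156 reads lay from 126997710 to 126998102 on part 1, 94.3 kb from the nearest seedling MHS. The site on part 2 of 4B near 3087412 ranked among the strongest of both lists, with folds of 20.0 in the spikelet and 20.5 in the seedling. The largest fold of the seedling on 4B was 22.8, from 258088207 to 258088577 on part 1, where the spikelet had 16.8, and the next after 20.5 was 17.8, from 115969930 to 115970584 on part 2, where the spikelet had 14.3. On 4D the same site led both lists, with a fold of 20.1 in the spikelet, from 165633331 to 165633743 on part 1, and of 21.7 in the seedling, from 165633356 to 165633734. A spikelet MHS with a fold of 17.9 lay from 163484776 to 163485184, where the seedling had 9.89. The third of the spikelet, with 16.7 from 284469881 to 284470238, was tissue-only and lay 67 kb from a seedling MHS. The other seedling MHSs with the largest folds on 4D were common, with 17.0 from 350096 to 350706 on part 1 and 15.5 from 39610740 to 39611307 on part 2.

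None of the widest MHSs reached a fold of 10. On 4A they had 2031 bp in the spikelet, from 83358578 to 83360608 on part 1 with a fold of 4.90, and 2231 bp in the seedling, from 17677955 to 17680185 on part 1 with a fold of 2.84. On 4B the same place was widest in both lists, with 1924 bp in the spikelet from 6396518 to 6398441 and 2193 bp in the seedling from 6396558 to 6398750 on part 1, at folds of 4.11 and 5.06. On 4D the widest had 2213 bp in the spikelet, from 270703804 to 270706016 on part 1, and 2177 bp in the seedling, from 425953542 to 425955718 on part 1, at folds of 4.94 and 7.45. The one of the spikelet on 4D was tissue-only, and the other 5 overlapped an MHS of the other list.

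On group 4, 21029 spikelet MHSs paired one to one with a seedling MHS, and the median log2 ratio of spikelet over seedling fold was 0.10, with the middle 50% from -0.19 to 0.38. It was 0.11 on 4A, 0.10 on 4B and 0.09 on 4D, and 0.10 on the other 18 chromosomes. In the last 20% of 4A the median was 0.14 over 2598 pairs, against 0.08 over 2101 pairs on 4B and 0.08 over 1983 pairs on 4D. A ratio of 2 or more in favour of the spikelet was found for 2.04% of these pairs on 4A, 1.24% on 4B and 1.31% on 4D, and in favour of the seedling for 0.654%, 0.762% and 0.555%. On the other 18 chromosomes as a whole these shares were 1.71% and 0.688%, and 7A and 6D had 2.02% and 2.06% in favour of the spikelet, so the value of 4A was not apart from theirs. Folds rest on the background and depth of each list.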

How the data were processed

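The authors trimmed the MH-seq reads with fastp, aligned them by bowtie2 to the IWGSC assembly (version 1.0), took out duplicates using Sambamba, kept a mapping quality of at least 20, merged 2 replicates per tissue and called peaks with MACS2 2.0. They state a q threshold of 0.01, but 159 spikelet and 754 seedling MHSs of group 4 had a higher q and were kept. The deposited score equals 10 times the −log10 q, cut to a whole number. The deposited fold is the ratio of pileup to local background at the summit, with 1 added to each. The deposited −log10 p-value and q-value belong to the summit. Members and lists were chosen with earlier results of these data known.

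Positions are 1-based, and an MHS was placed by its midpoint. Bins shorter than 5.0 Mb were left out of minima and maxima. Windows of 1 Mb moved by 100 kb, and the 3 densest without overlap were taken over both lists. The named MHSs are the 3 with the largest fold and the widest per list and chromosome, beside the longest tissue-only run and the longest stretch with no MHS. Shares have Wilson, densities exact Poisson, density ratios exact conditional binomial and differences of shares Newcombe intervals. Pileup and background were solved from fold and p, and the pileup was within 0.05 of a whole number for 100.0% of MHSs. Depth came from the lowest background and the stated genome size of 14 Gb. On simulated data, 100% of 4000 overlaps, 3000 pileups and 100 chromosomes were recovered. Other q thresholds, overlaps, bins, windows, end widths and folds were tried. Those for the last 20% and the densest bin were added after the data were seen. Genes were not analysed here, since the gene table at hand is of another assembly version. Software was matplotlib 3.10.9, scipy 1.17.1, pandas 2.3.3 and numpy 2.4.6 under Python 3.11.15.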

Additional observations from a re-analysis of the deposited data

How the results depend on the processing

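No paired analysis was possible because the replicates of a tissue were merged into 1 list. For the same reason no replicate could be left out. Of 123 values under alternatives, 68 stayed within the main interval, overlapped the main position or moved a likeness by less than 0.1, and 55 moved further, for causes that were not tested. Tissue-only shares in the spikelet were 38.0%, 35.4% and 35.9% on 4A, 4B and 4D with an overlap of 50% of the MHS, 46.1%, 43.5% and 43.9% with a reciprocal 50%, 28.4%, 25.7% and 26.8% when an MHS within 500 bp counted as overlap, and 36.2%, 33.8% and 33.8% with a q of at most 1e-05 in both lists. In the seedling these were 47.1%, 44.0% and 42.2%, then 49.8%, 46.9% and 45.2%, then 34.4%, 32.0% and 30.0%, and last 27.5%, 25.7% and 24.6%. In each setting 4A had the highest share. With this q the last 20% of 4A exceeded that of 4B by 9.68 points in the spikelet and that of 4D by 10.3 in the seedling.

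The density ratio of 4A to 4B was 1.02 in base pairs covered in the spikelet, and 1.02 with the strict q in the seedling. That of 4A to 4D was 0.855 in base pairs in the spikelet, and 0.9 in base pairs and 0.879 with the strict q in the seedling. The start share of 4A in the spikelet was 48.2% over the outermost 5%, 41.4% over 20%, 48.1% over 50 Mb and 47.3% with the strict q, and in the seedling 42.6% over 5%, 37.8% over 20% and 46.7% with the strict q. On 4B it was 49.5% in the spikelet and 48.5% in the seedling over the outermost 5%. With the strict q 4A was above 4B, which had 46.6% in the spikelet and 46.5% in the seedling, so the order of these chromosomes turned round. The lowest bin of 4B moved to 29.3% of the length with 5 Mb bins and 34.1% with 20 Mb bins. The densest window moved to 99.3% of 4A with the strict q and to the opposite end of 4D, at 99.9%, with windows of 500 kb. With 5 Mb bins the densest bin also changed ends on 4B, to 1.86%, and on 4D, to 1.47%, where it stayed at the start with 20 Mb bins, at 1.96%. Strong MHSs of group 4 made up 6.59% in the spikelet and 4.67% in the seedling at a fold of 8, and 0.386% and 0.223% at 12. Of those in the spikelet, 7.45% were tissue-only at 8 and 21.9% at 12, and in the seedling 0.0% at 12.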
